A study of Homo sapiens with 17 samples.

Results

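The nuclear pore and transport receptor genes described here were the 46 genes of a table of 9699 whose symbol begins with NUP, IPO, XPO, TNPO, KPNA, KPNB, RANGAP or RANBP (a number had to follow NUP, IPO and RANBP). Messenger RNA and ribosome-protected fragments were sequenced in BJ cells, a line of human fibroblasts immortalized with hTERT, in 5 conditions, and the 17 samples (9 RNA-Seq, 8 Ribo-Seq) are given as 12 columns of FPKM, that is fragments per kilobase of transcript, scaled to the reads of the library. The design asks how transcript level and translation differ between proliferating cells and cells that are resting, on the way to senescence, senescent or transformed. Proliferating cells have 2 columns per assay, 1 from each of 2 sequencing runs, and every other state has 1, so no value below carries a replicate error within a run and no test between conditions was made.

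All cells carried hTERT, and the growth medium held fetal calf serum. Proliferating cells were given as the columns C12, which combines cultures C1 and C2, and C3, a further culture. Quiescent cells were made by serum depletion, and their column combines 2 cultures per assay. Pre-senescent cells carried tamoxifen-inducible RASG12V and had been kept with 4-OHT-tamoxifen for 5 days, with 2 combined cultures for RNA-Seq and 1 for Ribo-Seq. Senescent cells were the same engineered cells after 14 days, with 1 culture. Transformed cells, also 1 culture, carried a knockdown of p16INK4A among other stable changes, and SV40 small T, and received RASG12V by retrovirus. Following the study, quiescent and pre-senescent cells were compared with C12, and senescent and transformed cells with C3, the control of the same sequencing run, so that comparisons within each pair share their control. Senescent and transformed cells both received RASG12V, and which vectors the control cultures carried is not given in the sources used here.

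The checks of state were as follows. MKI67, a marker of cycling cells, was at 73.9 FPKM of RNA in C12, 32.8 in quiescent, 37.0 in pre-senescent, 44.0 in C3, 1.00 (the lowest value the table holds) in senescent and 29.2 in transformed cells. CDKN1A, an inhibitor of the cell cycle, was at 172 FPKM in C3 and 814 in senescent cells. CDKN2A RNA, which encodes p16INK4A, was at 12.6 FPKM in transformed cells against 6.75 in C3, the reverse of its knockdown label, although C12 was at 17.2. Its occupancy by Ribo-Seq went in the direction of the label, at 5.51 FPKM in transformed cells, against 8.92 in C3 and 13.0 in C12. That was the lowest of the 6 columns, but senescent (6.33) and pre-senescent cells (7.05), not described as carrying the knockdown, were close to it. Since the assays differ, the column is called the library labelled transformed. For 2 Ribo-Seq samples title and condition contradict each other: the sample titled S.rp is described as proliferating and C3.rp as senescent. Titles were used, since they match the column names, and MKI67 stood at 1.00 FPKM in the Ribo-Seq column S and at 43.0 in C3. All 9 fibroblast markers examined (COL1A1 and VIM among them) were in the table, with a summed RNA level of 4754 to 6782 FPKM. VIM was the highest of the 9 in every RNA column, at 2956 FPKM in C3 and 3943 in senescent cells. Between these columns COL1A1 went from 1328 to 51.6 FPKM, DCN from 164 to 11.3 and PDGFRB from 48.5 to 4.49. The 4 epithelial and 3 endothelial markers and 2 of the 3 leukocyte markers were looked up and were not in the table. The third leukocyte marker, CD68, was in it, at 38.3 FPKM of RNA in senescent and 132 in pre-senescent cells, its lowest and highest columns.

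The nuclear pore complex is the channel through the nuclear envelope. Its scaffold is built from the Y complex and the inner ring, its central channel is filled by proteins rich in phenylalanine-glycine repeats, and filaments on its cytoplasmic side and a basket on its nuclear side dock cargo complexes. Importins and exportins carry proteins and RNA through it, and the Ran GTPase cycle gives transport its direction. Pores are dismantled and rebuilt at every open mitosis of human cells, and new pores are inserted as the nucleus grows before division.

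The 46 members were sorted by role into 19 pore proteins and 27 members outside the pore. The pore proteins are 6 of the Y complex, 5 of the inner ring, 2 of the central channel, 4 of the cytoplasmic face and 2 of the nuclear basket. The members outside the pore are 6 importin alpha proteins, which bind classical import signals and act as adaptors, 11 receptors of the importin beta family, 6 exportins, RANGAP1 and RANBP3 of the Ran cycle, and RANBP9 and RANBP10, which the naming rule catches but which are subunits of a ubiquitin ligase and are counted with the 27. KPNB1, TNPO2, KPNA7, RANBP1, RANBP3L, NUP210, NUP210L and NUP62CL fit the rule by name but were not in the table. A mean of at least 2 FPKM over the columns of the assay was required for a comparison, which 45 members met in RNA-Seq (not KPNA5) and 45 in Ribo-Seq (not RANBP17). Both assays were met by 44 members. A difference of at least 1.5-fold was counted as a rise or a fall, and "log2 difference" below means log2 FPKM of the condition minus that of its control.

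The members' median level lay above that of all genes in every state. In RNA, 24 of the 45 members lay above the median of all genes in senescent cells, and 31 to 36 in the other columns. Their median RNA level was 27.5 FPKM in C12, 19.5 in quiescent, 27.4 in pre-senescent, 20.8 in C3, 15.8 in senescent cells and 24.0 in the library labelled transformed, while the median over all genes tested lay between 13.0 and 14.8 FPKM. The members' median was lowest in senescent cells, where that of all genes was 13.0 FPKM. KPNA2, an importin alpha linked to proliferating cells, had the highest RNA level of the members in C12 (156 FPKM), in quiescent, pre-senescent and C3 cells and in the library labelled transformed, and RANGAP1, the activator of Ran GTP hydrolysis, in senescent cells (98.6 FPKM). RANBP17, a relative of the exportin XPO7, was the lowest of the 45 in all 6 columns, between 1.35 and 3.76 FPKM.

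Among the comparisons with proliferating cells, more members fell in RNA in senescence than in any other state, and so did more of all genes. The RNA of 18 of the 45 members fell at least 1.5-fold between C3 and senescent cells, which is 40.0% against 22.6% of all 9203 genes tested, and 1 member rose, 2.22% against 18.5% of all genes. The members' median log2 difference was -0.50 and that of all genes -0.01. Pore proteins made up 13 of the 18: 13 of 19 pore proteins fell, with a median of -0.83, and 5 of 26 members outside the pore fell, with a median of -0.24. All 18 were lower in senescent cells than in both proliferating columns, and each fall was larger than the distance between C12 and C3, the only gauge of spread between cultures of 1 state.

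**Figure D1:**
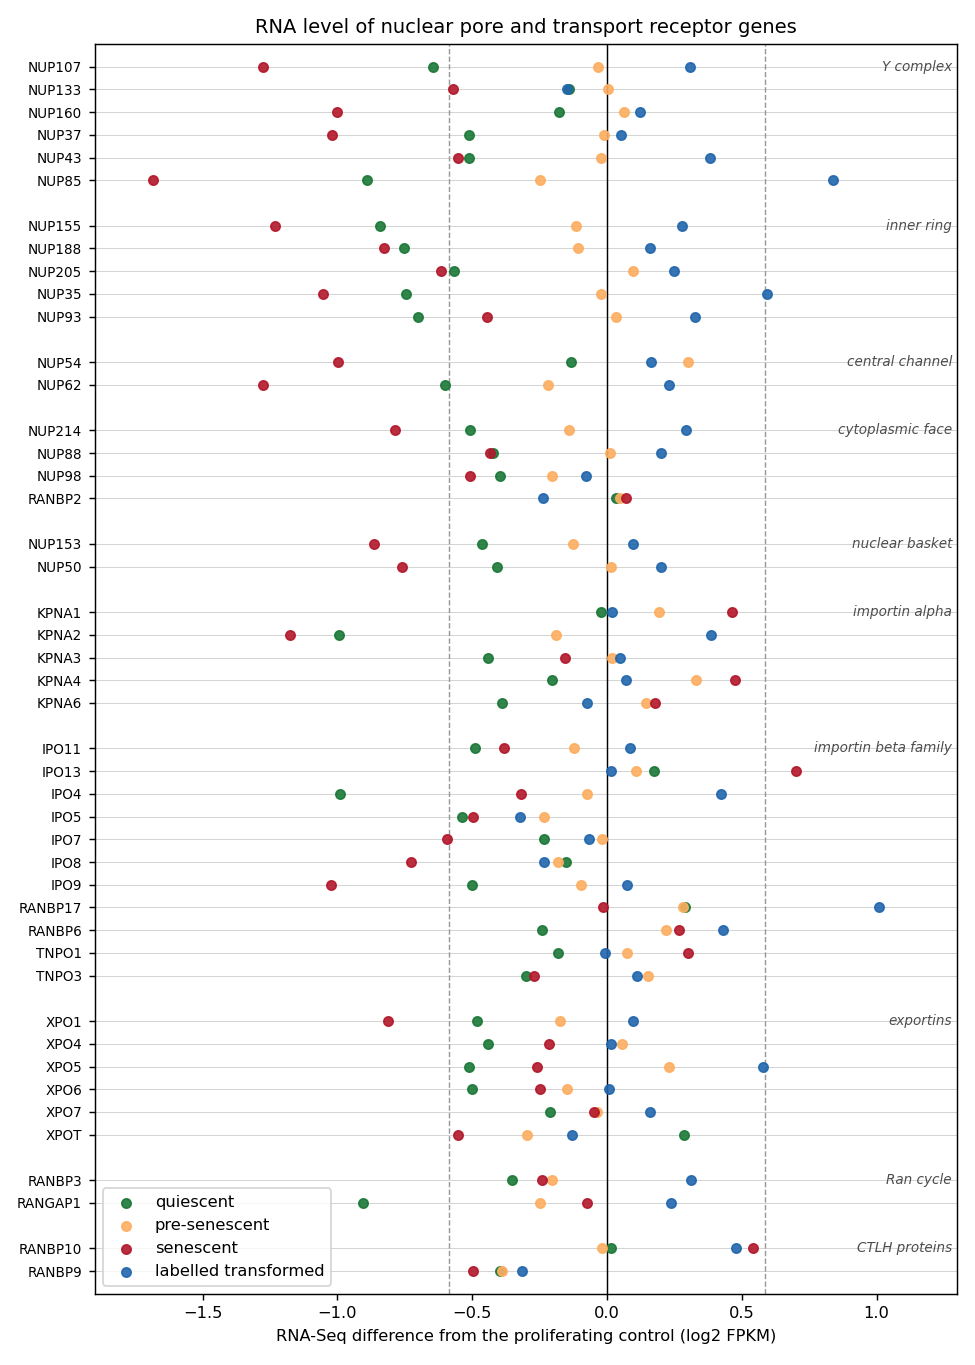
RNA-Seq difference of 45 members from the proliferating control of the same run (log2 FPKM, horizontal axis), by gene and role, for quiescent, pre-senescent and senescent cells and the library labelled transformed. Each point is 1 column against 1 column, and dashed lines mark 1.5-fold. Senescent cells (red) lie left of the lower line for 18 genes, most of them pore proteins in the upper rows.

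Within the Y complex, the scaffold of the outer rings, 4 of 6 members fell. In the following, RNA levels are given in FPKM in the order C12, quiescent, pre-senescent, C3, senescent and labelled transformed. NUP85 stood at 32.0, 17.3, 27.0, 20.2, 6.29 and 36.2. It was the member with the greatest fall, 3.22-fold between C3 and senescent cells, and the senescent value was the lowest of the 6 and the labelled transformed value the highest. NUP107, also of the Y complex, stood at 23.4, 14.9, 22.8, 16.8, 6.94 and 20.8, and NUP160 at 14.2, 12.6, 14.9, 12.6, 6.30 and 13.8. NUP37 stood at 28.3, 19.8, 28.1, 22.8, 11.2 and 23.6. For each of these genes the senescent column was the lowest of the 6, with log2 differences from C3 of -1.27 (NUP107), -1.003 (NUP160) and -1.02 (NUP37). NUP43 (-0.55) and NUP133 (-0.57) stayed within 1.5-fold.

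The inner ring, which anchors the pore in the membrane, gave 4 falls among 5 members. NUP155 stood at 18.3, 10.2, 16.9, 10.7, 4.57 and 13.0, a log2 difference of -1.23 in senescence. NUP35, a small membrane-binding subunit, stood at 13.2, 7.87, 13.0, 8.65, 4.17 and 13.1, a difference of -1.05. The large scaffold proteins moved less: NUP188 stood at 32.8, 19.5, 30.4, 28.01, 15.8 and 31.3 and NUP205 at 25.6, 17.2, 27.4, 20.7, 13.5 and 24.6, with differences of -0.83 and -0.62. NUP93, the hub that recruits the other inner ring proteins, went from 27.5 to 20.2 FPKM, a difference of -0.45 that did not reach 1.5-fold.

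Both central channel proteins fell. NUP62, whose repeats form the permeability barrier, stood at 48.5, 32.0, 41.7, 27.8, 11.5 and 32.6, and fell 2.42-fold in senescence. NUP54, its partner in the channel, stood at 14.1, 12.8, 17.3, 18.3, 9.18 and 20.5 and fell 2.00-fold. Both basket proteins fell as well. NUP153, the basket protein that holds NUP50, stood at 30.8, 22.3, 28.2, 23.1, 12.7 and 24.7, and NUP50, a cofactor of importin alpha recycling, at 24.4, 18.4, 24.7, 20.8, 12.3 and 24.0. At the cytoplasmic face only NUP214, which acts in RNA and exportin release, passed the limit, at 13.9, 9.81, 12.7, 11.8, 6.81 and 14.4. NUP88 (-0.43), NUP98 (-0.51) and RANBP2 (0.07) did not, and RANBP2, the main filament protein, kept between 9.44 and 11.9 FPKM over all 6 columns. RANBP2 has near-identical copies in the genome and only uniquely mapped reads were counted, so its level is uncertain.

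Among the receptors the senescent changes went both ways. KPNA2 stood at 156, 78.5, 137, 126, 55.6 and 164, a fall of 2.26-fold, while the other importin alpha genes tested did not fall: KPNA1 (0.46), KPNA4 (0.48), KPNA6 (0.18) and KPNA3 (-0.15) all stayed within 1.5-fold. KPNA5, below the limit on level, lay between 1.13 and 2.80 FPKM. In the importin beta family 3 of 11 fell, a share near the 22.6% of all genes. IPO9, an importer of histones and actin, stood at 17.6, 12.5, 16.5, 14.5, 7.15 and 15.3. IPO7 stood at 88.1, 75.0, 87.0, 73.5, 48.7 and 70.2 and its close relative IPO8 at 14.3, 12.9, 12.6, 18.7, 11.3 and 15.9, with log2 differences of -0.60 and -0.73, of which the former is just past the limit. IPO13, a receptor that works in both directions, was the only member whose RNA rose: it stood at 18.1, 20.5, 19.5, 16.2, 26.4 and 16.4, with the senescent column the highest of the 6.

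Of the exportins that the naming rule takes in, only XPO1, the receptor for leucine-rich export signals, fell. Its RNA stood at 79.2, 56.6, 70.2, 66.8, 38.02 and 71.5. The tRNA exportin XPOT (-0.55), XPO5, which exports microRNA precursors (-0.26), XPO6 (-0.25), XPO4 (-0.21) and XPO7 (-0.05) were within the limit, all with values below 0. RANGAP1 (-0.07), RANBP3 (-0.24), RANBP9 (-0.50) and RANBP10 (0.54) did not pass it either.

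Markers of cycling cells moved with these falls. The summed RNA level of 5 proliferation genes (MKI67, CCNB1, CCNA2, CDK1 and PLK1) was 372 FPKM in C12, 151 in quiescent, 235 in pre-senescent, 253 in C3, 10.1 in senescent cells and 229 in the library labelled transformed, all 5 being lowest in senescent cells, and the part of cell cycling in the pore protein falls was not tested. Fewer cells with a transcript and less of it per cell cannot be told apart in these bulk samples. Against C12 in place of C3, 28 members fell and 1 rose and the median was -0.85, while the share of all genes past 1.5-fold in either direction went from 41.0% to 51.8%. Under a limit set by the SD of the differences of the 500 genes nearest in level, the kind of rule the study applied, 1 member passed (NUP85), where 8.30% of all genes did.

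Promoters of members that fell together in senescence are printed here to show which short motifs of cell cycle and growth promoters they hold. The 250 bases before the first listed start of each gene were taken from RefSeq (GRCh38.p14), where 42 of 46 members had an entry, and 5 motifs were searched on both strands: CCAAT (the NF-Y box, ATTGG on the other strand), TTTGAA (the CHR element, TTCAAA on the other strand), CCGGAAG (an ETS site, CTTCCGG on the other strand), CACGTG (the E-box) and TTTNNCGC (an E2F site). Capitals mark the matches, sequences run 5′ to 3′ on the strand of the gene, and positions count the bases before the start. The first 4 are the fallers that hold both CCAAT and TTTGAA. KPNA2 (chr17:68035485-68035734, plus strand) has TTTGAA at 99 and CCAAT at 89 and 58 bases before its start. NUP35 (chr2:183124193-183124442, plus strand) has TTTGAA at 35, CCAAT at 24 and CCGGAAG at 97. NUP37 (chr12:102120115-102120364, minus strand) has TTTGAA at 66, CCAAT at 39 and CCGGAAG at 14. NUP205 (chr7:135557667-135557916, plus strand) has TTTGAA at 165 and CCAAT at 148. NUP107 (chr12:68686728-68686977, plus strand) has CCAAT at 138, TTTNNCGC at 128 and CCGGAAG at 10. NUP85 (chr17:75205429-75205678, plus strand), the gene with the greatest fall, and IPO13 (chr1:43946700-43946949, plus strand), the gene that rose, hold none of the 5, and neither do NUP62, NUP155 and IPO8, which also fell.
KPNA2: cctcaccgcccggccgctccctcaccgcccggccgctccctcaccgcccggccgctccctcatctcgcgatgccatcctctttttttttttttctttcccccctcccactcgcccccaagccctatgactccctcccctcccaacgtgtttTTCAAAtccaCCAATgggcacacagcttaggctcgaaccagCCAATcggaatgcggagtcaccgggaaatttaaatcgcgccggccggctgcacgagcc
NUP35: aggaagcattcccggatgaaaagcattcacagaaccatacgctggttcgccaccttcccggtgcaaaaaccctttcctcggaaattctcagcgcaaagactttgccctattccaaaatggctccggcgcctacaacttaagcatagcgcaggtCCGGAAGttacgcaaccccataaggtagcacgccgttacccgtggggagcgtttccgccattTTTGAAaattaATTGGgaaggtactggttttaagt
NUP37: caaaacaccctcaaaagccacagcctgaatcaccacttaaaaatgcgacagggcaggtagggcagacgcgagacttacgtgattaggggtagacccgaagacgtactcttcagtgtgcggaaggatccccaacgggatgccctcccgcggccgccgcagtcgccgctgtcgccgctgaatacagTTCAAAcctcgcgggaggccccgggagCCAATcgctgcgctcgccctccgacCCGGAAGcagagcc
NUP205: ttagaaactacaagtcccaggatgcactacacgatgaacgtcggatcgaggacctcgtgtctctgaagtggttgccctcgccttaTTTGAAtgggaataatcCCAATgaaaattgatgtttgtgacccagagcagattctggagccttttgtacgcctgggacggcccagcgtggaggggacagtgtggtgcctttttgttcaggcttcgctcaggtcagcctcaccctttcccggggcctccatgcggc
NUP107: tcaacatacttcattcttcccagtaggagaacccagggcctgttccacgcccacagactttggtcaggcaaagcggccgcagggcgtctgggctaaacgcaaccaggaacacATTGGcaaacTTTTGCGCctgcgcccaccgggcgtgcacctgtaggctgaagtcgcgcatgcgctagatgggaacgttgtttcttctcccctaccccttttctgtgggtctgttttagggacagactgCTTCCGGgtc
NUP85: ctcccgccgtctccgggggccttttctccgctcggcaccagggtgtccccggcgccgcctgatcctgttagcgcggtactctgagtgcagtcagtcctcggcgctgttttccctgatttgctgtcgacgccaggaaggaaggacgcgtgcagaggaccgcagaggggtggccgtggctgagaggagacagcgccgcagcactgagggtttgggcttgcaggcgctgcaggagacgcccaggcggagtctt
IPO13: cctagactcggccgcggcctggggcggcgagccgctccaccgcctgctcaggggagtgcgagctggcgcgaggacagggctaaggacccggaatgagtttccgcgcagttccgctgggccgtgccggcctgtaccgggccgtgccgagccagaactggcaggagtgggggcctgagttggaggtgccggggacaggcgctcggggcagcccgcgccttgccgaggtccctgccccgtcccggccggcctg

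Over the 42 members with a promoter entry, CCAAT was in 18 (42.9%, against 33.0% of 27305 promoters), TTTGAA in 8 (19.0% against 13.6%), CCGGAAG in 11 (26.2% against 8.82%), CACGTG in 5 (11.9% against 6.49%) and TTTNNCGC in 3 (7.14% against 5.93%). Of the 18 members whose RNA fell in senescence, all with an entry, 6 held TTTGAA and 7 held CCGGAAG, and of the other 24 members 2 and 4 did. CCAAT was in 8 of the 18 and 10 of the 24, CACGTG in 3 and 2, and TTTNNCGC in 1 and 2. CCAAT and TTTGAA stood together in 5 members (the 4 printed and NUP98), 4 of them among the 18, and in 4.85% of all promoters. The 27305 promoters also take in genes outside the table of 9699, so they are not matched to the members in expression. A difference in share is therefore not read as particular to the members. These counts describe letters in a window and no binding was measured.

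By Ribo-Seq, which reads the occupancy of transcripts by ribosomes, 14 of 45 members fell in senescence, 31.1% and so near the 29.6% of all 9201 genes tested, and 5 rose, 11.1% against 20.8%. Both RNA and occupancy fell for 12 members, which is 12 of the 18 RNA falls and 12 of the 14 occupancy falls. The same overlap over all genes is not given here, so these counts are not read as particular to the members. The RNA of 3 pore proteins (NUP153, NUP205 and NUP214) and 3 receptors (IPO7, IPO8 and XPO1) fell without a fall in occupancy past the limit, and NUP43 and NUP88 fell in occupancy alone. RANBP2 had an occupancy difference of 0.54 beside an RNA difference of 0.07, under the limit in both. Of the 14, 12 were among the 19 pore proteins. All 5 that rose were receptors (IPO13, KPNA1, KPNA4, RANBP6 and TNPO1). They were 5 of the 26 members outside the pore, a share near the 20.8% of all genes. The median log2 difference in occupancy was -0.69 over all 19 pore proteins and -0.09 over the 26 members outside the pore that were tested. Occupancy of NUP85 was 46.2, 27.5, 31.4, 23.1, 7.23 and 42.8 FPKM in the same order of columns, lowest in senescent cells as for its RNA. Occupancy of NUP62 was 57.8, 44.8, 56.5, 31.8, 13.3 and 31.0 FPKM and of NUP107 37.5, 28.2, 34.3, 35.2, 15.7 and 47.4 FPKM, again with the senescent column lowest.

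KPNA4 was the receptor whose occupancy rose most. Its RNA stood at 22.4, 19.5, 28.2, 20.7, 28.8 and 21.7 FPKM and its occupancy at 70.7, 50.3, 74.7, 75.8, 156 and 85.5 FPKM, so that the senescent occupancy was 2.06-fold that of C3 and the highest of the 6 columns. KPNA2 occupancy stood at 239.9, 96.4, 156, 238, 150.1 and 305 FPKM. KPNA2 occupancy was above that of KPNA4 in every column except the senescent one, where the values were 150.1 and 156 FPKM. TNPO1, the receptor for proline-tyrosine import signals, went from 116 to 175 FPKM of occupancy, RANBP6, a relative of IPO5, from 25.8 to 44.8, KPNA1 from 42.5 to 67.4 and IPO13 from 5.99 to 10.97. Each of these senescent values was also above C12.

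**Figure D2:**
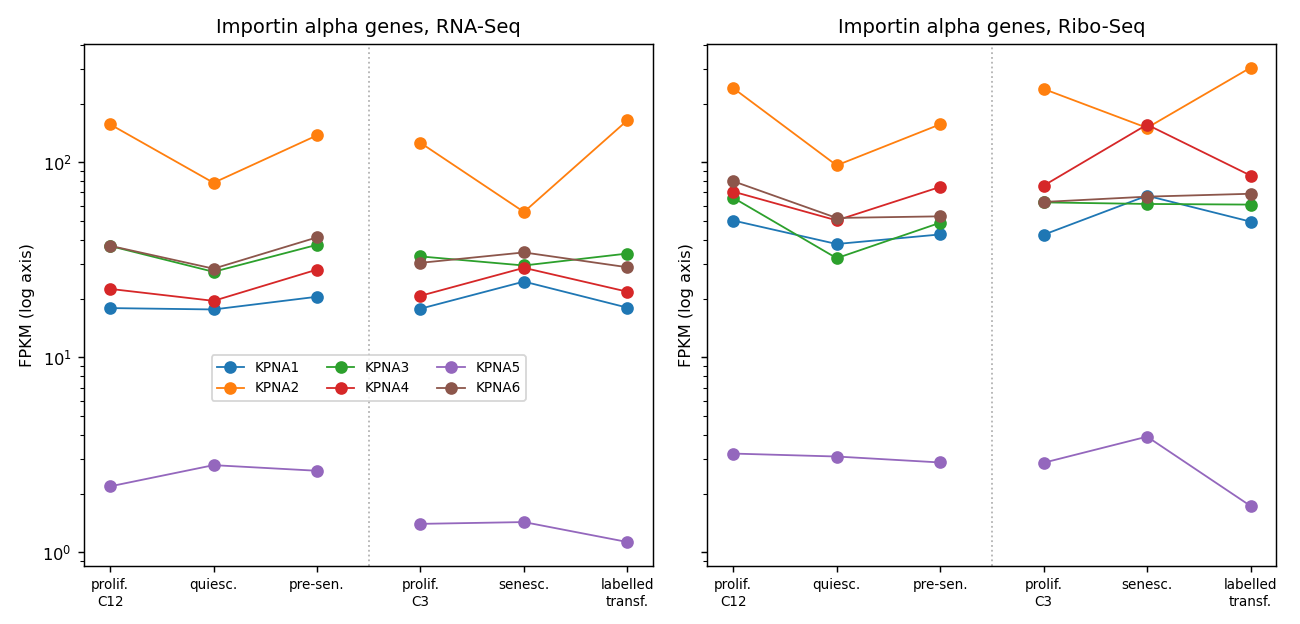
RNA-Seq level (left) and Ribo-Seq level (right) of 6 importin alpha genes in FPKM on a log axis, by state. Lines join columns that share a control, and each point is 1 column. KPNA2 drops in quiescent and senescent cells in both assays, and in senescent cells its Ribo-Seq level meets that of KPNA4.

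**Figure D3:**
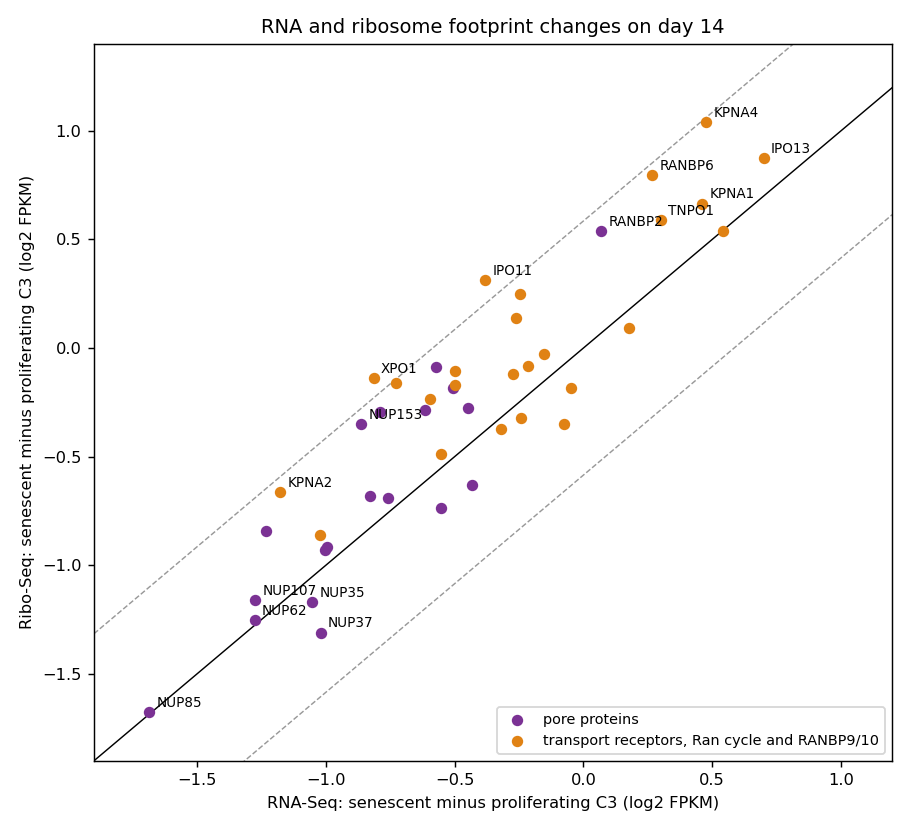
Ribo-Seq difference (vertical axis) against RNA-Seq difference (horizontal axis) between senescent and C3 cells in log2 FPKM for the members that passed both filters. The solid line is equal change and dashed lines mark a 1.5-fold change of translation efficiency. Pore proteins gather at the lower left, with NUP85 lowest, and KPNA4, IPO13 and RANBP6 lie at the upper right.

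Translation efficiency (TE), the log2 ratio of Ribo-Seq to RNA-Seq FPKM, passed the limit for few members in senescent cells. It rose at least 1.5-fold for 2 of 44 members, 4.55% against 13.0% of all 8984 genes tested, and fell for 0, against 18.1%. The 2 were IPO11, an importer of ubiquitin-conjugating enzymes, and XPO1. In the same order of columns the TE of XPO1 was 0.12, 0.12, -0.004, 0.14, 0.81 and 0.46, and that of IPO11 was 0.04, 0.06, 0.28, 0.18, 0.88 and 0.59, both highest in senescent cells. Under the limit that follows the spread of genes of like level neither passed, where 7.05% of all genes did. XPO1 occupancy was 73.5 FPKM in C3 and 66.8 in senescent cells while its RNA went from 66.8 to 38.02 FPKM. The median TE difference was 0.17, against -0.05 for all genes, and 34 of 44 members lay above 0. The lowest value was that of NUP37, -0.29. Against C12, TE rose for 12 members and fell for 1 (NUP37), where 42.5% of all genes passed. With the Ribo-Seq columns S and C3 exchanged, as their condition labels would have it, TE rose for 27 and fell for 7, where 67.5% of all genes passed, and every occupancy difference above would change sign.

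The lowest and the highest TE among the members stayed with a few genes in all states. XPO6, which exports actin with profilin, was lowest of all members in each of the 6 columns, at -2.31, -1.63, -1.82, -2.05, -1.56 and -1.94. IPO13 was next lowest in each, at -1.58, -1.37, -1.26, -1.44, -1.27 and -1.50. KPNA4 or TNPO1 was highest in each column, KPNA4 at 1.66, 1.37, 1.41, 1.88, 2.44 and 1.98 and TNPO1 at 1.63, 1.15, 1.71, 1.78, 2.06 and 2.02. RNA-Seq reads were counted over the whole transcript and Ribo-Seq reads over the coding sequence, so a level of TE also depends on gene structure. Only its differences between columns of the same run compare like with like.

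In quiescent cells the RNA of 10 of 45 members fell at least 1.5-fold, 22.2% against 8.95% of all genes, and that of 0 rose, against 10.6%. The median log2 difference was -0.44 against -0.01 for all genes, with 40 of 45 below 0. Of 19 pore proteins 7 fell, with a median of -0.51, and of 26 members outside the pore 3 did, with a median of -0.37. The 10 were NUP85 (-0.89) and NUP107 (-0.64) of the Y complex, NUP155 (-0.84), NUP188 (-0.75), NUP35 (-0.74) and NUP93 (-0.70) of the inner ring, NUP62 (-0.60), KPNA2 (-0.996), IPO4 (-0.99) and RANGAP1 (-0.90). In the inner ring 4 of 5 members passed the limit. NUP93 RNA was at 43.7, 26.9, 44.7, 27.5, 20.2 and 34.5 FPKM.

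IPO4, an importer of histones and ribosomal proteins, stood at 52.9, 26.7, 50.3, 26.4, 21.1 and 35.4 FPKM, and RANGAP1 at 146, 77.9, 123, 104, 98.6 and 122 FPKM. RANGAP1 was lowest in quiescent cells and stayed within 1.5-fold in senescent cells, whereas IPO4 was as low in C3 as in quiescent cells. For 8 of the 10 the quiescent value lay below both proliferating columns, IPO4 and NUP62 being the exceptions. Against C3 in place of C12, 2 members fell (KPNA2 and RANBP6) and 1 rose (XPOT), where 22.9% of all genes passed, and the members' median was -0.09. Under the limit that follows the spread of genes of like level, 2 fell (IPO4 and NUP155), where 7.88% of all genes passed. The 5 proliferation genes, summed, were at 151 FPKM in quiescent cells against 372 in C12, and their part in these falls was not tested.

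Occupancy in quiescence fell for 15 of 45 members, 33.3% against 22.7% of all genes, and rose for 0, against 18.3%. Of these, 6 had also fallen in RNA, that is 6 of 10 and 6 of 15, with no overlap over all genes given here to compare. KPNA2 went furthest, from 239.9 to 96.4 FPKM, and KPNA3, a close relative of KPNA4, went from 65.8 to 32.2 FPKM while its RNA went from 37.2 to 27.4 FPKM. TE passed 1.5-fold for 4 of 44 members, 9.09% against 24.3% of all genes. It rose for XPO6 and NUP214 and fell for KPNA3 and NUP54. The TE of KPNA3 was 0.82, 0.23, 0.38, 0.92, 1.05 and 0.83 and that of NUP54 0.63, -0.07, 0.21, 0.81, 0.89 and 0.80, both lowest in quiescent cells. For NUP214, at -0.78, -0.17, -0.20, 0.23, 0.72 and 0.05, C12 was lower than every other column, so the rise is not separate from the distance between C12 and C3. With C3 as control, TE rose for 0 members and fell for 6 (KPNA2, KPNA3, NUP43, NUP54, RANBP2 and TNPO1), where 29.0% of all genes passed, so that neither rise was kept. The fall of KPNA3, just past the limit, was lost with log2(FPKM + 1), as was the rise of NUP214, and with the median of all genes removed, where NUP188 rose as well. Under the limit that follows genes of like level 0 passed, where 8.56% of all genes did.

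Pre-senescent cells, 5 days into RASG12V, had member RNA levels close to C12. Of 45 members 0 passed 1.5-fold in either direction, against 12.3% of all genes, and the differences ran from -0.39 to 0.33 with a median of -0.02. RANBP9 had the lowest difference and KPNA4 the highest. Against C3, 6 members rose and 0 fell, where 31.0% of all genes passed in either direction. Of the proliferation genes, MKI67 went from 73.9 FPKM in C12 to 37.0 and PLK1 from 105 to 66.4, both past 1.5-fold, as did CCNA2, while CCNB1 went from 116 to 82.7 and CDK1 from 37.1 to 25.1, within it.

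Translation of a few members was lower on day 5. Occupancy fell for 7 of 45 members, 15.6% against 23.2% of all genes, and TE fell for 4 of 44, 9.09% against 22.6%, and rose for 0, against 13.7%. The 4 were NUP37 and NUP43 of the Y complex, NUP35 and KPNA6. NUP37 had the greatest difference, -1.30: its RNA was 28.3 FPKM in C12 and 28.1 in pre-senescent cells, and its occupancy 64.8 and 26.1 FPKM. In the order of columns used above, TE was 1.19, 0.91, -0.11, 0.90, 0.61 and 0.75 for NUP37, 0.81, 0.59, -0.06, 1.28, 1.10 and 0.83 for NUP43, 0.67, 0.41, -0.14, 0.69, 0.57 and -0.10 for NUP35 and 1.10, 0.86, 0.36, 1.04, 0.95 and 1.25 for KPNA6. All 4 were lower in pre-senescent cells than in both proliferating columns. NUP43 RNA was at 24.99, 17.5, 24.6, 15.3, 10.4 and 19.9 FPKM and KPNA6 RNA at 37.3, 28.5, 41.2, 30.5, 34.5 and 28.9 FPKM, both within 1.5-fold of C12 on day 5.

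Median TE over all genes differed by -0.15 between pre-senescent cells and C12. With that shift removed, 3 members rose (NUP214, XPO6 and XPO7) and the same 4 fell, where 34.9% of all genes passed in either direction. With C3 as control 9 fell, all 4 among them, where 38.8% of all genes passed. Under the limit that follows the spread of genes of like level 1 fell (NUP37), where 8.92% of all genes passed.

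**Figure D4:**
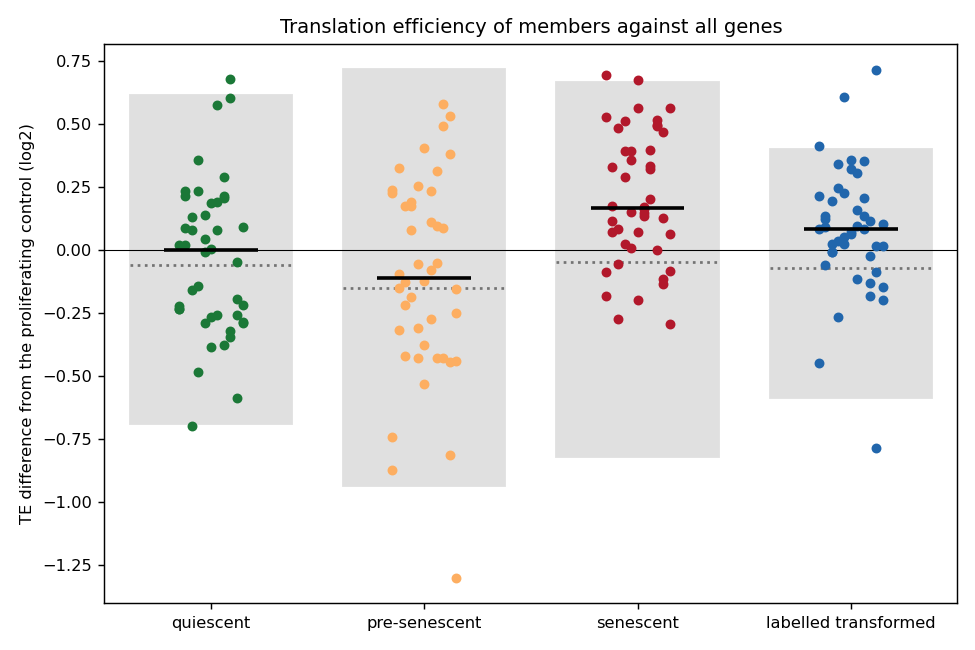
TE difference of 44 members from the proliferating control of the same run (log2, vertical axis) by condition. Points are members, black bars their median, grey boxes the 10th to 90th percentile of all 8984 genes and dotted lines the median of all genes. The members' median lies above that of all genes in each condition, most in senescent cells (0.17 against -0.05), and NUP37 is the lowest point in pre-senescent cells.

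In the library labelled transformed the members stayed near C3. RNA rose for 3 of 45 members, 6.67% against 12.6% of all genes, and fell for 0, against 11.2%, with a median of 0.12 against 0.09 for all genes. The 3 were NUP85 (0.84), NUP35 (0.59) and RANBP17 (1.01). RANBP17 RNA stood at 1.35, 1.65, 1.64, 1.87, 1.85 and 3.76 FPKM, near the lowest value of the table in every column. It met the limit on mean level only through this library, the one where it is high, and without it 2 of 44 members rose. NUP35 at 13.1 FPKM was no higher than in C12, at 13.2, so its rise did not exceed the distance between the proliferating columns. Among genes with a mean of at least 10 FPKM only NUP85 rose, where 20.4% of all genes passed in either direction. Under the limit that follows genes of like level 0 members rose, where 6.2% of all genes passed. Against C12, NUP85 and NUP35 stayed within 1.5-fold, RANBP6 and RANBP17 rose and RANBP9 fell, where 26.1% of all genes passed.

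Occupancy rose for 4 of 45 members in that library, 8.89% against 12.9% of all genes: NUP85, NUP205, XPO5 and IPO4. It fell for KPNA5 alone, from 2.88 to 1.73 FPKM, where 15.7% of all genes fell. XPO5 occupancy stood at 24.5, 19.8, 27.7, 21.4, 23.5 and 33.8 FPKM and its RNA at 21.0, 14.7, 24.6, 14.1, 11.7 and 21.0 FPKM, the RNA difference of 0.58 lying just under the limit. TE passed 1.5-fold for 3 of 44 members, 6.82% against 14.5% of all genes, rising for IPO7 and RANBP2 and falling for NUP35. TE was 1.24, 0.95, 1.498, 1.29, 1.65 and 1.89 for IPO7 and -0.03, -0.08, 0.35, 0.51, 0.98 and 1.23 for RANBP2, and that of NUP35 went from 0.69 in C3 to -0.10. RANBP2 TE was higher in C3, senescent cells and the library labelled transformed than in the other 3 columns, a split that follows the control used. With C12 as control 5 passed, these 3 among them, where 32.9% of all genes did, and with the Ribo-Seq columns S and C3 exchanged 18 passed, where 50.02% did.

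The senescent column and the library labelled transformed, both with RASG12V and from the same run, were also set directly against each other. RNA was lower in senescent cells for 22 of 45 members, 48.9% against 26.7% of all genes, and higher for IPO13 alone, against 18.2%. The 22 include RANBP17, which met the limit on level only through the library labelled transformed, and without it 21 of 44 were lower. The median log2 difference was -0.55 against -0.09 for all genes. Of 19 pore proteins 16 were lower, the exceptions being NUP133, NUP98 and RANBP2, and of 26 members outside the pore 6 were, RANBP17 among them. NUP85 differed by -2.52, from 36.2 to 6.29 FPKM, the largest RNA difference of any member in these comparisons. NUP88, which passed the limit here (-0.64) and not against C3, had RNA levels of 29.6, 22.1, 29.8, 24.3, 18.0 and 27.99 FPKM.

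Occupancy was lower in senescent cells for 18 of 45 members, 40.0% against 29.9% of all genes, and higher for 3 (IPO13, KPNA4 and KPNA5), against 22.8%. Of the 44 members measured in both assays, 21 were lower in RNA and 18 in occupancy, and 16 were lower in both. The share of all genes lower in both is not given here. TE was higher for 2 of 44, 4.55% against 13.1% of all genes, namely NUP35 (0.67) and NUP214 (0.67), and lower for 0, against 11.4%. Under the limit that follows genes of like level, RNA was lower for 2 members (KPNA2 and NUP85), where 8.55% of all genes passed. The TE call of NUP35 was lost with log2(FPKM + 1) and with a mean of at least 10 FPKM, which NUP35 does not meet and which removes it from every TE comparison. Under the limit that follows genes of like level neither TE call held, where 7.01% of all genes passed. With the Ribo-Seq columns S and C3 exchanged, TE passed 1.5-fold for 19 members, where 44.5% of all genes did.

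The proliferating columns themselves differed for several members. RNA was at least 1.5-fold lower in C3 than in C12 for 7 of 45 (IPO4, NUP35, NUP155, NUP43, NUP62, NUP85 and NUP93), 15.6% against 14.5% of all genes, and 40 of 45 lay below 0 with a median of -0.29 against -0.07. RANBP6 alone was at least 1.5-fold higher in C3, against 11.7% of all genes: its RNA stood at 8.99, 7.61, 10.4, 14.7, 17.7 and 19.8 FPKM, with the 3 columns of C3's run above the 3 of C12's. TE passed 1.5-fold for NUP214 alone, 2.27% of 44 against 26.8% of all genes. Beside this, MKI67 RNA was 73.9 FPKM in C12 and 44.0 in C3 and CDKN1A RNA 80.8 and 172 FPKM, and the part of culture and of sequencing run cannot be told apart.

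Other genes of the pore and of Ran transport, which the naming rule does not take in, were read from a list of 25, of which 21 were in the table. In senescent cells the RNA of 10 of the 21 fell and 0 rose, where 22.6% of all genes fell and 18.5% rose, and the median was -0.55 against -0.01 for all genes. RCC1, the exchange factor that charges Ran with GTP, was at 56.5, 31.1, 51.7, 29.9, 14.1 and 42.2 FPKM of RNA in the order of columns used above, and CSE1L, the exportin that returns importin alpha to the cytoplasm, at 106, 64.4, 101, 66.7, 36.1 and 74.8 FPKM. TMEM48, a membrane protein that anchors the pore, was at 24.9, 14.3, 18.7, 17.5, 7.40 and 17.2 FPKM, and TPR, the main basket filament, at 27.5, 26.7, 23.4, 23.7, 13.0 and 16.6 FPKM. All 4 were lowest in senescent cells. RAN itself, at 518, 355, 519, 474, 452 and 474 FPKM, did not pass the limit in any comparison of RNA. Its occupancy fell past 1.5-fold from 818 FPKM in C12 to 400 in quiescent and 498 in pre-senescent cells. Its TE fell past 1.5-fold in pre-senescent cells alone (-0.72). RNA fell in quiescent cells for 3 of the 21 (CSE1L, RCC1 and TMEM48), where 8.95% of all genes fell. Of these, RCC1 was not below C3 (31.1 against 29.9 FPKM), and CSE1L was only slightly below it (64.4 against 66.7 FPKM). RNA passed the limit for 0 of the 21 in pre-senescent cells, where 12.3% of all genes passed, and for 0 in the library labelled transformed, where 11.2% fell and 12.6% rose.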

How the data were processed

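BJ fibroblasts were profiled by RNA-Seq and Ribo-Seq. As described by the authors, reads were aligned with Bowtie, uniquely mapped reads only, to 1 protein-coding transcript per gene of Ensembl, and hg19 is named in the submitters' processing notes. The deposited FPKM values count RNA-Seq reads over the whole transcript and Ribo-Seq reads over the coding sequence, with values below 1 set to 1 by the authors. C12, quiescent (both assays) and pre-senescent RNA-Seq columns were read as combined replicates (5 of 12), and how they were combined is not given in the sources used here. The table gives no read counts, and the read totals the study lists for each library were not used, so no counting interval was computed. RNA-Seq of C3, senescent and transformed cells was single-end, the rest paired-end.

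From these values, differences of log2 FPKM were taken over all genes (Python 3.11.15, pandas 2.3.3, numpy 2.4.6, figures with matplotlib 3.10.9). Genes needed a mean of at least 2 FPKM in the assay (both assays for TE), and at least 1.5-fold was counted. The code was tested on simulated data. One item of the design is not reported here. Every member could be named, with values in each column for those past 1.5-fold in RNA level or TE. The members, roles, lists and motifs were chosen with earlier results of these data known. Alternatives were log2(FPKM + 1), no filter on level or a mean of at least 10 FPKM, median centring, a limit of 1.75 SDs of the 500 genes nearest in level, the control of the other run, and exchange of the Ribo-Seq columns with contradictory labels.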

Additional observations from a re-analysis of the deposited data

Results flagged for a closer look

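The RNA of 2 members moved in opposite directions in different states, each state against its own control. NUP35 fell by 0.75 on the log2 scale in quiescent cells and rose by 0.59 in the library labelled transformed, so that the changes differ by -1.34. Its change in senescent cells, -1.05, differs from that in the library labelled transformed by -1.65. For NUP85, the quiescent change was -0.89 and that in the library labelled transformed 0.84, a difference of -1.73. The senescent change of NUP85, -1.69, differs from the latter by -2.52. These differences were not tested, since neither these states nor C3 and C12, which belong to different runs, have a second column in their run. NUP35 RNA in the library labelled transformed (13.1 FPKM) was no higher than in C12 (13.2 FPKM), while NUP85 RNA there (36.2 FPKM) was above both proliferating columns (32.0 and 20.2 FPKM), within 1.5-fold of the former.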

How the results depend on the processing

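Across 11 counts of members past 1.5-fold and 67 alternative settings, 43 values stayed within 1.5 times the reported count and 24 did not. For these 24 the cause was not tested, apart from the fewer genes counted by a stricter limit. Under the limit set by the spread of genes of like level, RNA counts were 2 in quiescent cells (reported 10), 1 in senescent cells (19), 0 in the library labelled transformed (3), 2 for senescent cells against that library (23) and 1 for C3 against C12 (8), and TE counts were 0 in quiescent (4), 1 in pre-senescent (4) and 0 in senescent cells (2) and 0 for senescent cells against the library labelled transformed (2). With the control of the other run, RNA counts were 3 in quiescent, 6 in pre-senescent (reported 0) and 29 in senescent cells, and TE counts were 9 in pre-senescent and 13 in senescent cells and 5 in the library labelled transformed (3). With log2(FPKM + 1) the TE count was 2 in quiescent cells and 1 for senescent cells against the library labelled transformed. With a mean of at least 10 FPKM it was 1 for the latter, and the RNA count in the library labelled transformed was 1. A count that stayed close can hold other genes: with median centring the TE count in quiescent cells was still 4, with KPNA3 lost and NUP188 gained. Median centring gave TE counts of 7 in pre-senescent and 4 in senescent cells. With the Ribo-Seq columns S and C3 exchanged, TE counts were 34 in senescent cells, 18 in the library labelled transformed and 19 for senescent cells against it. The Ribo-Seq column titled S correlated across genes with the senescent RNA column (r = 0.85, values centred over 3 columns, genes not being independent replicates) and not with that of C3 (r = -0.50). With the control of the other run the TE count in quiescent cells was 6, with 0 rises in place of 2. The alternatives for C3 against C12 were chosen after seeing the data. No paired analysis was possible because every state but proliferation has 1 column per assay, and for the same reason no replicate could be left out, exchanging C3 and C12 as control taking its place. The table gives no read counts, and values near 1 FPKM (RANBP17, KPNA5) lie at the lower limit of the table.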
